A study of Drosophila melanogaster with 8 samples.

Results

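Control guts of adult female Drosophila melanogaster were described from 4 libraries, chosen as the 4 control columns of a table of 8 libraries of whole guts. The study set enterocytes that overexpress lamin Dm0 beside these controls, and the lamin libraries were not used here. By the series' own design text the controls carried UAS>GFP and were biological repeats, while their genotype label reads wt. The title places the GFP in enterocytes, and the driver is not named in the labels, so the control is a gut that expresses a reporter from a transgene. Females were cultured at 18 °C, were aged 2 to 4 days and spent 2 days at 29 °C before their guts were dissociated for RNA. The number of guts behind each library is not stated.

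The adult fly gut is a tube with a cuticle-lined foregut and hindgut and an endodermal midgut between them. Midgut enterocytes secrete digestive enzymes and absorb nutrients, enteroendocrine cells release peptide hormones, and intestinal stem cells renew both through short-lived progenitors such as enteroblasts. Visceral muscle and trachea surround the epithelium, the Malpighian tubules join the gut at the midgut-hindgut boundary, and fat body and ovary lie close to it in the abdomen. Food is kept from the epithelium by the peritrophic matrix, a sleeve of chitin and mucin-like proteins, and bacteria are sensed through peptidoglycan by the Imd pathway.

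Counts totalled 20954291, 19720070, 23347139 and 23176905 in control libraries 1 to 4, and every set of 4 values below follows that order. Levels are given in CPM, the count divided by the library's sum and multiplied by 1000000, so an order of genes by CPM is an order of read share. Levels per transcript are compared in TPM, the same scaling applied after division by exon length. Of 17559 genes in the table, 12134 had a count in at least 1 control library, 9737 had one in all 4 and 5425 had none. A mean of at least 1 CPM was reached by 8099 genes, of at least 10 CPM by 5388, of at least 100 CPM by 1279 and of at least 1000 CPM by 163. Where a gene had no count, a level of up to 3 counts remains possible, equal at these depths to 0.128 to 0.152 CPM, a limit for counting error only. Of 71 Y-chromosome genes, 66 had no count in any library, and the Y total was 22, 19, 21 and 17 counts. The 5 listed genes of testis and male accessory gland had none. Both sets are mainly genes of male reproductive tissue, so their absence from a gut cannot check the sex of the label.

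A few genes supplied much of the message. The 10 genes of highest mean CPM over the 4 libraries held 19.9%, 20.5%, 23.7% and 26.2% of the counts. The 100 genes of highest mean CPM held 45.5%, 45.9%, 49.5% and 51.1%. Genes of digestion and absorption held 29.1%, 27.9%, 26.9% and 30.3% of the counts (28.5% ± 1.48, SD, n = 4) and filled 21 of the first 30 places by mean CPM. Genes of translation, respiration and central metabolism held 24.2%, 25.7%, 30.5% and 27.0%. Detoxification and stress genes held between 2.98% and 3.32%, and markers of hindgut, trachea and tissues outside the gut held between 0.0166% and 0.112%.

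**Figure D1:**
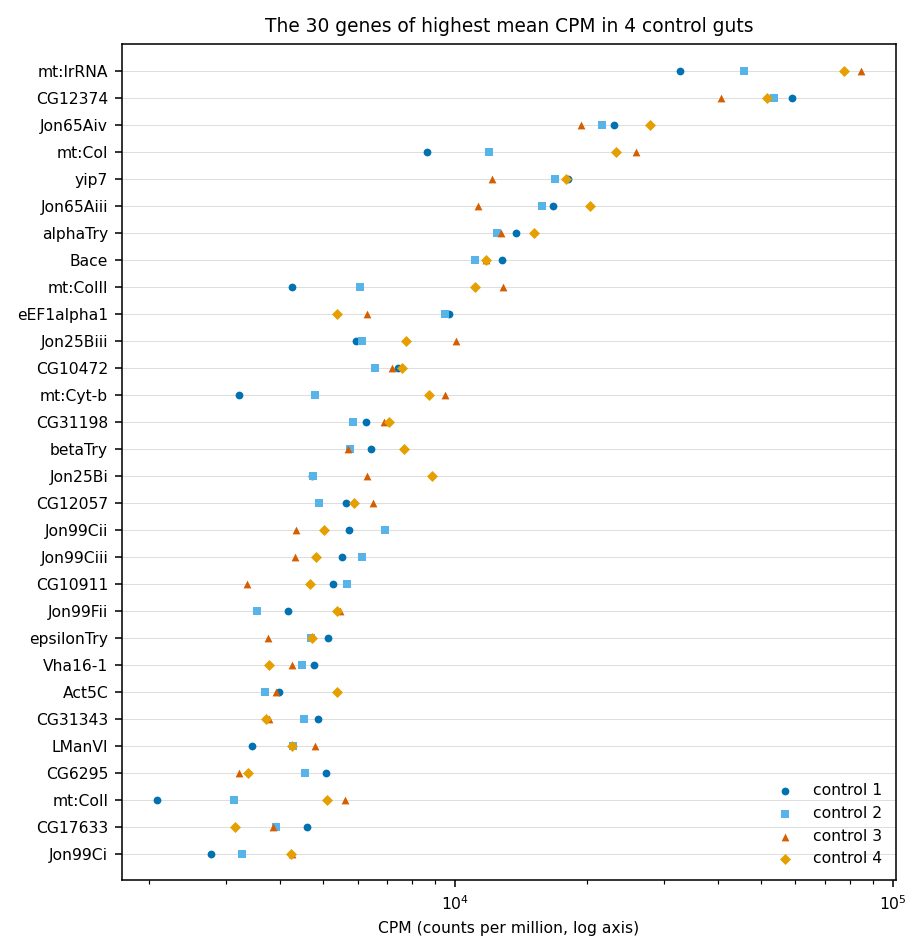
CPM of the 30 genes of highest mean CPM (log axis), with 1 point per control library. Digestive peptidases fill most rows, and the mitochondrially encoded genes show the widest gaps between points, with control 1 lowest and control 3 highest in each.

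By read share the first nuclear gene was CG12374 (FBgn0033774, chromosome arm 2R, 12762113 to 12763825 in the Ensembl annotation BDGP6.54), which encodes a zinc carboxypeptidase that trims amino acids from the C-terminus of peptides. Its level was 58998, 53672, 40454 and 51576 CPM, above every library of the next nuclear gene, and it alone made up 88.4% of the summed level of its list of zinc carboxypeptidases. Second among nuclear genes came Jon65Aiv (chromosome arm 3L, 6039155 to 6040135), a Jonah serine endopeptidase, at 23061, 21673, 19377 and 27857 CPM. The chymotrypsin-like yip7 stood at 18139, 16980.4, 12167 and 17912 CPM, Jon65Aiii at 16809.9, 15861, 11297 and 20374 and the trypsin alphaTry at 13772, 12506, 12742 and 15206. Library 3 was lowest for CG12374, Jon65Aiv, yip7 and Jon65Aiii, and library 2 for alphaTry. Of the 29 neighbouring pairs in the first 30 genes, 28 had overlapping ranges over the 4 libraries, so most places in this order do not differ beyond the spread between libraries. The exception was the gap between CG12374 and Jon65Aiv.

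Per transcript length the order changed little at the top: 9 of the first 10 genes by CPM were among the first 10 by TPM, and 23 of the first 30 among the first 30. CG12374 reached 47226 ± 7876 TPM (SD, n = 4), Jon65Aiv 34281 ± 5094, Jon65Aiii 24794 ± 5679.9 and yip7 24347 ± 4379. With exons of 2464 and 3077 bases, against 1464 for CG12374, eEF1alpha1, the translation elongation factor that delivers tRNA, and Vha16-1, the membrane-ring subunit of the proton pump, stood at 4241 ± 1285 and 1895 ± 219 TPM and in places 33 and 86. The Jonah, trypsin and other near-identical protease copies share sequence, so the split of reads between them is uncertain.

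The 40 listed digestive serine proteases summed to 145299, 139527, 133050.0 and 165787 CPM, 14.6% of all counts, and 36 of them exceeded 100 CPM. Besides the genes above, Jon25Biii stood at 5959, 6150.4, 10072 and 7722 CPM and betaTry at 6438, 5762, 5719 and 7641. Library 4 was highest for the summed proteases under every scaling tried, and library 3 lowest by total counts but library 2 lowest under the other scalings. Membrane aminopeptidases, which release single amino acids at the brush border, summed to 17315, 16128, 17255 and 17164 CPM, with CG31198 at 6271, 5846, 6905 and 7070.4 and CG31343 at 4884, 4535, 3766 and 3703 CPM. The aspartic peptidases were almost a single gene: Bace, at 12854, 11101, 11772 and 11778 CPM, was 97.4% of that list's sum, and 8 of the 12 members had no count.

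The 21 listed genes of carbohydrate digestion summed to 12655, 15424, 25217 and 19329 CPM. Among the lysosomal-type alpha-mannosidases, LManVI stood at 3444, 4273, 4807 and 4241 CPM and LManV at 1829, 2347, 3856 and 2823. Amylases, which cut starch, were represented by Amy-p at 1417, 1753, 805 and 947 CPM and its near-identical copy Amy-d at 649, 758, 305 and 404. The maltase Mal-A1, which cuts the maltose that amylase leaves, stood at 895, 1089, 4592 and 2947 CPM. Libraries 1 and 2 were high for both amylases, and libraries 3 and 4 were high for Mal-A1 and LManV. Lipases summed to 10483, 10124, 10036 and 9234 CPM, led by the pancreatic-type lipase genes CG6295, at 5071, 4539.7, 3224 and 3365, and CG17192, at 4144, 4219, 2575 and 3297 CPM. The gastric-type lipase mag (magro), which digests dietary triacylglycerol, stood at 809, 561, 2599.6 and 949 CPM.

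Acid secretion, metal handling and absorption followed. Subunits of the vacuolar ATPase, which acidifies the copper cell region and lysosomes, summed to 14209.5, 13201, 12640.2 and 11652 CPM, with Vha16-1 at 4766, 4482, 4256 and 3769. On the log2(CPM + 1) scale, none of 16 subunit genes of at least 10 CPM had highest and lowest libraries 1 or more apart. That difference is about 2-fold, and 583 of 5388 genes of that level reached it (10.8%). The 16 genes are too few to set apart from that share. Of the 31 listed genes, 18 reached 1 CPM. Metal handling summed to 7153, 7466, 7612 and 7426 CPM, with 1.06 as the ratio of the highest to the lowest library, but 6 of its 17 genes of at least 10 CPM varied by that measure (35.3%, against 10.8% of all genes) and in different directions. Its leading genes were the iron-storage ferritin chains Fer1HCH, at 2064, 2245, 2539 and 2567 CPM, and Fer2LCH, at 2034, 2201, 2003 and 2235, and the copper-binding metallothionein MtnA, at 1957, 1810.3, 1908 and 1612. These 3 did not reach that difference. The copper importer Ctr1B stood at 65.7, 68.3, 291 and 282 CPM, high in libraries 3 and 4, and the metallothionein MtnB at 10.6, 14, 43.5 and 14.5, highest in library 3. Metallothioneins MtnD, at 87.6, 112, 27.8 and 37.4 CPM, and MtnE, at 181, 229, 68.4 and 86.4, were high in libraries 1 and 2, as was the zinc transporter foi, at 61.3, 72.4, 35.2 and 35.8. The zinc transporter ZnT35C was highest in library 1, at 22, 8.06, 2.61 and 10.5 CPM. Listed sugar and amino acid transporters were lower, at 1027, 1105, 812 and 693 CPM in sum, with the cationic amino acid transporter slif at 265, 274, 182 and 179.7 and path at 208, 237, 98.5 and 114.9 CPM. The sterol transporters of the Niemann-Pick type C family summed to 837, 729, 1408 and 918 CPM. Npc1b, required for the uptake of dietary sterol in the midgut, had the highest read share, at 166, 132, 832 and 327 CPM. Per transcript length the secreted-type Npc2d was higher, at 604 ± 146 TPM against 123 ± 107 for Npc1b.

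**Figure D2:**
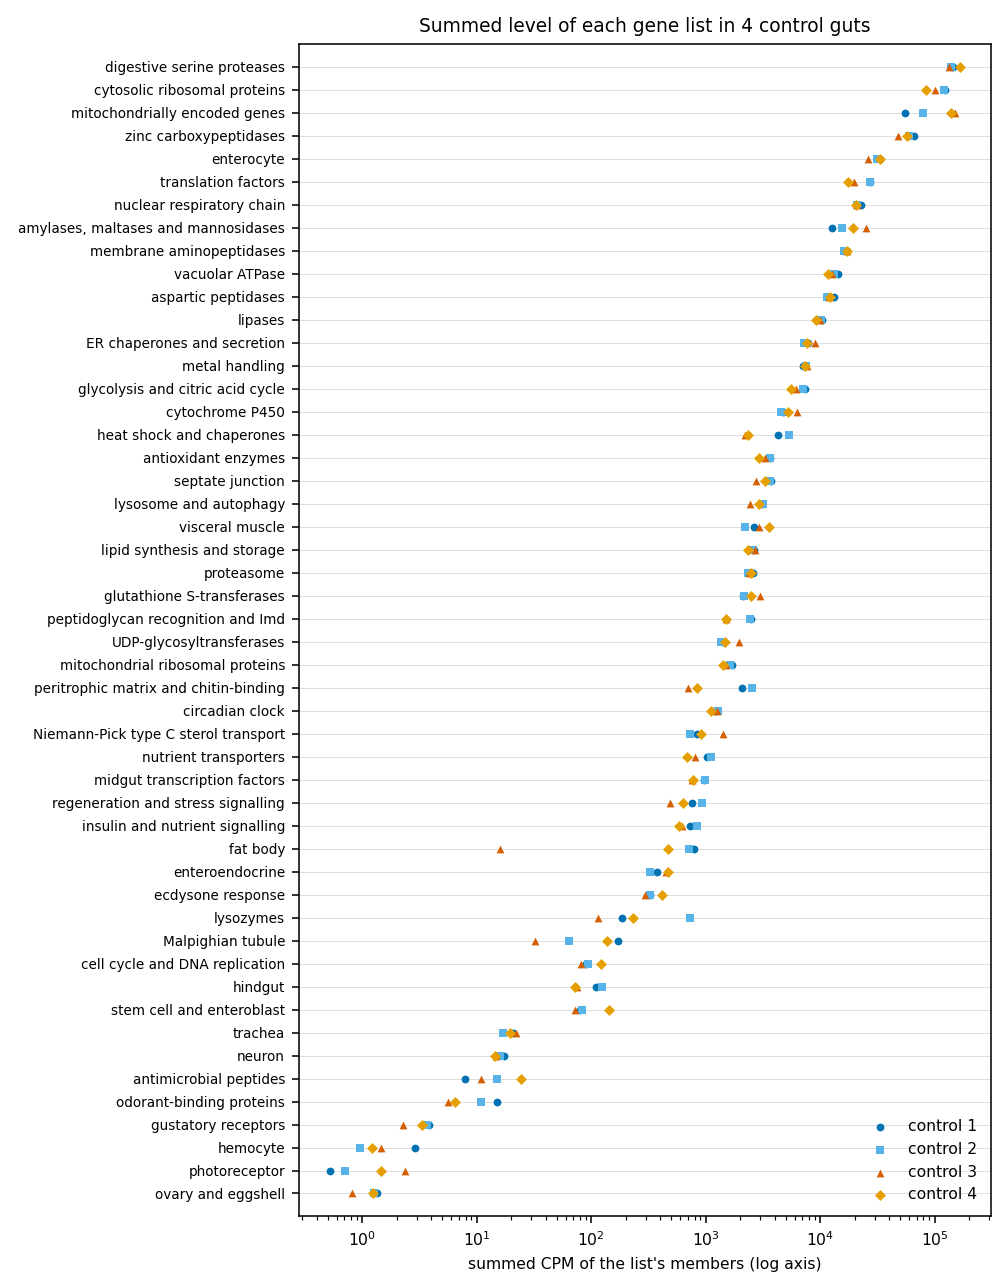
Summed CPM of the members of each gene list (log axis), with 1 point per control library, ordered by mean. Digestive serine proteases lead, and ovary and eggshell genes are at the foot. Control 3 stands apart for fat body genes, is lowest for Malpighian tubule genes and is highest for the amylase, maltase and mannosidase list.

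The barrier and defence genes had very unequal levels. Of 30 listed peritrophic matrix and chitin-binding genes, 13 reached 1 CPM and 3 exceeded 100 CPM: the mucin Muc68D at 1089, 1383, 377 and 165 CPM, CG14125 at 558, 698, 144 and 137 and Peritrophin-15a at 263, 298, 136 and 273. The septate junction genes that seal the epithelium summed to 3758, 3615, 2734 and 3277 CPM, led by mesh at 1231, 1194, 988 and 1253 and Ssk at 376, 364, 346 and 418 CPM, both of which are known from the smooth junctions of endodermal epithelia. Antimicrobial peptide genes were low: 4 of 19 reached a mean of 1 CPM, none reached 10 CPM, and the highest, AttD, stood at 2.39, 4.56, 5.35 and 16.8 CPM. Per transcript length AttD was at 13.1 ± 11.5 TPM, and the peptidoglycan-degrading amidase PGRP-SC2 at 1574 ± 56.7. PGRP-SC2 stood at 889.5, 830.2, 856 and 907 CPM and another amidase, PGRP-LB, at 223, 175, 149 and 126. Rel, the NF-kappaB factor of the Imd pathway, stood at 538, 547, 107 and 124 CPM, and pirk, an inhibitor of the pathway, at 289.8, 265, 61.2 and 40.3. Libraries 1 and 2 were high and libraries 3 and 4 low for Rel and pirk, without overlap, whereas PGRP-SC2 was level across all 4.

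Detoxification genes were numerous and moderately expressed. Of 87 listed cytochrome P450 genes, 64 reached 1 CPM and 12 reached 100 CPM, and together they summed to 4776, 4509.5, 6279 and 5234 CPM. The highest read share was that of Cyp6d5, at 686, 644, 867 and 704 CPM (596 ± 72.7 TPM). Cyp1, a cyclophilin gene and not a cytochrome P450, entered this list by its symbol and is part of its counts and sums. It stood at 638, 589, 604 and 595 CPM (667 ± 32.2 TPM). Glutathione S-transferases, which attach glutathione to toxins, summed to 2105, 2162, 2968 and 2471 CPM with GstD1 at 380.5, 384, 824 and 524, and UDP-glycosyltransferases to 1414, 1375, 1975 and 1486 CPM. Library 3 was highest for all 3 families under every scaling tried, and libraries 1 or 2 were lowest. The widest ranges were those of Cyp4g1, which makes cuticular hydrocarbons in oenocytes, at 130.0, 30.9, 56.5 and 4.75 CPM with library 1 highest, and GstD2, at 2.1, 3.14, 37.7 and 6.13 CPM with library 3 highest. Antioxidant enzymes summed to 3658, 3641, 3324 and 2947 CPM, with superoxide dismutase Sod1 at 425, 419, 564 and 533 CPM and catalase Cat at 445, 421, 610.3 and 413.

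Cytosolic ribosomal protein genes held 10.8% of the counts, at 124236, 119658, 101543 and 84856 CPM, and 81 of the 88 listed exceeded 100 CPM. Library 4 was lowest for 78 of the 82 members that reached 10 CPM, and library 1 was highest for 63. On the log2(CPM + 1) scale 1 of these 82 differed by 1 or more between libraries, beside 10.8% of all genes. Translation factors followed, at 27446, 27084, 19733 and 17664 CPM, with library 4 again lowest for 38 of 43 members. After TMM scaling library 4 stayed lowest for both sums, at 89160 CPM for ribosomal proteins and 18560.5 CPM for translation factors. For these and later counts of list members highest or lowest in 1 library, the share over all genes of that level is not given. Nuclear genes of the respiratory chain were steady, at 22893, 20954, 21193 and 20478 CPM, with ATPsynbeta, a catalytic ATP synthase subunit, at 2626, 2458, 2300.2 and 2077 CPM.

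Mitochondrially encoded genes held 5.55%, 7.85%, 15.2% and 13.8% of the counts and, without the 2 ribosomal RNAs, 2.28%, 3.26%, 6.74% and 6.05%. The large ribosomal RNA mt:lrRNA was the most abundant RNA of the table at 32697, 45788, 84490.4 and 77277 CPM, a ratio of 2.58 between the highest and the lowest library. The cytochrome oxidase subunit mt:CoI stood at 8643, 11982, 25977 and 23393 CPM and cytochrome b, mt:Cyt-b, at 3211, 4794, 9499 and 8743. Library 1 was lowest for all 14 mitochondrial genes that reached 10 CPM, and library 3 highest for 13 of them. Libraries were made from poly(A)-selected RNA, and the part of that step in these levels was not tested.

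The labelled tissue was checked against markers of its cell types. Enterocyte genes were abundant: Myo61F, a brush-border myosin, stood at 558 ± 19.2 TPM (SD, n = 4), mex1 at 344 ± 22.4 and Myo31DF at 93.6 ± 6.64. The transcription factor nub (Pdm1), a marker of differentiated enterocytes, was at 37.2, 43.2, 39.1 and 48.3 TPM. In the stem cell and enteroblast list, esg, the factor that holds progenitors undifferentiated, was at 12.1, 11.4, 8.13 and 18.2 TPM, and the Notch ligand Delta, which marks stem cells, at 2.15, 1.81, 2.2 and 3.32. In the same list Su(H), the effector of Notch signalling, was near the foot at 0.799, 1.37, 0.694 and 1.26 TPM, highest in library 2. Its transcript alone does not mark enteroblasts. Library 4 was the highest for esg and Delta, and library 3 was lowest for esg and library 2 for Delta. In a whole gut, fewer cells of a type and less RNA per cell cannot be told apart.

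Of 21 listed enteroendocrine genes, which include hormones, secretory granule proteins and the factor pros, 18 reached 1 CPM. The granule protein gene IA-2 had the highest read share, at 95.8, 81.5, 111 and 107 CPM. Among the hormones AstC was the most abundant, at 74, 71.5, 93.5 and 103 TPM, followed by NPF at 40, 27.5, 82 and 88.5, CCHa2 at 30.2, 30, 57.3 and 49.7, Orcokinin at 39.6, 35.3, 36.8 and 34.6 and Tk at 26.7, 20.5, 33.9 and 30.8 TPM. The ranges of neighbours in this order overlapped, except those of Orcokinin and Tk. The factor pros, which marks these cells, was at 3.25, 2.23, 2.57 and 3.93 CPM, which over 24892 bases of annotated exon is 0.179, 0.123, 0.137 and 0.209 TPM. Library 2 was lowest for 8 of the 9 members that reached 10 CPM. Visceral muscle genes were all present, 17 of 17 at 10 CPM or more, with the myosin heavy chain Mhc at 359, 267, 371 and 428 CPM and the light chain Mlc2 at 257, 211, 323 and 377 CPM. There library 4 was highest for 15 of 17 members and library 2 lowest for 14. These counts are by total counts. After TMM scaling the muscle list summed to 2479, 2102, 3103 and 3757 CPM and the enteroendocrine list to 355, 309, 481 and 491.

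**Figure D3:**
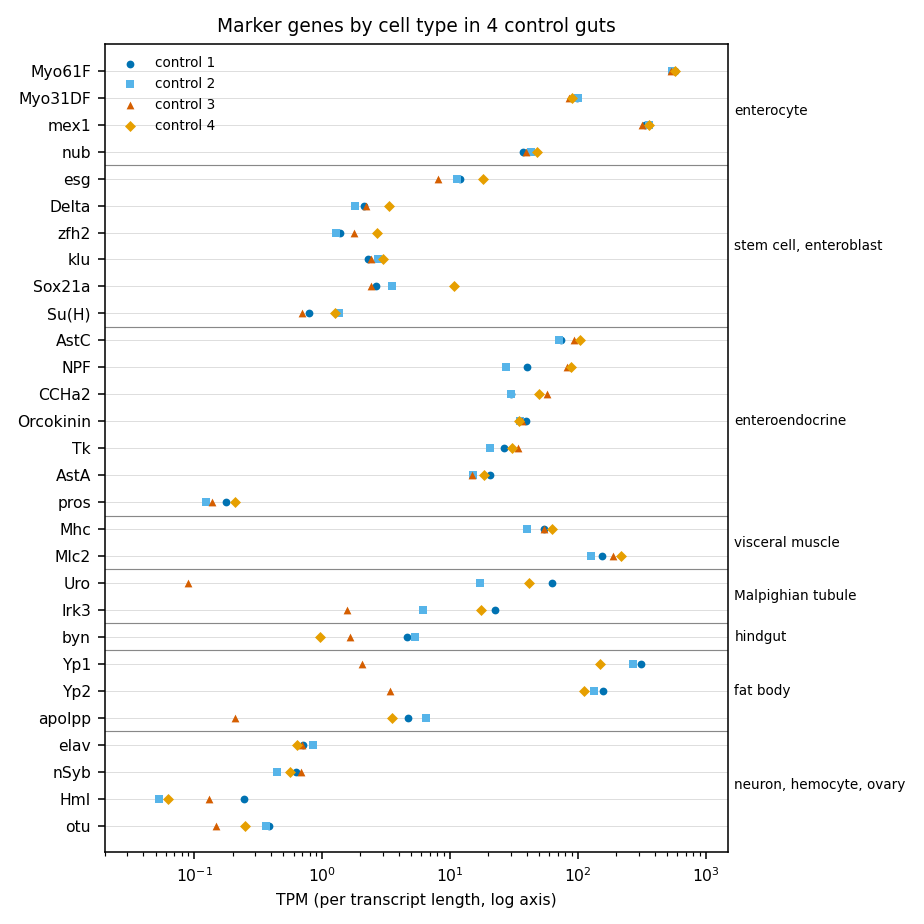
TPM of marker genes grouped by cell type (log axis), with 1 point per control library. Each enterocyte marker shown has its libraries within a narrow band, while control 3 lies far to the left for the tubule and fat body markers shown. Not all listed markers are drawn. The enterocyte genes Npc1b and Amy-p, which varied, and the tubule gene Oatp58Da, which was not lowest in control 3, are left out.

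Midgut transcription factors were detected, 13 of 15 at 1 CPM or more. GATAe, which is required for midgut identity, stood at 106, 93.3, 81.1 and 67.6 CPM, cad, a posterior midgut factor, at 60.8, 55.2, 49.5 and 44.4, exex at 65.7, 56.4, 60.8 and 63.1 and Ptx1 at 72.3, 74, 65 and 55.7 CPM. The copper-cell factor lab stood at 13, 15.6, 12 and 10.5 CPM. Hindgut genes were low but present, drm at 64.4, 72.5, 48.1 and 51.7 and byn at 8.88, 10.4, 3.3 and 1.94 CPM, and libraries 1 and 2 were high for both. Among circadian genes tim stood at 494, 495, 567 and 439.6, Pdp1 at 326, 376, 293 and 261 and per at 14.1, 12.1, 15.2 and 11.7 CPM. None of the 8 listed genes varied, a number too small to set apart from the 10.8% of all genes. Proliferation genes were low: of 20 listed cell cycle and replication genes 3 reached 10 CPM, among them the ribonucleotide reductase subunit RnrS at 9.74, 10.2, 8.87 and 20.5 CPM.

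Genes of most other tissues were near 0, with fat body and Malpighian tubule as the exceptions. Ovary and eggshell genes summed to 1.34, 1.27, 0.814 and 1.25 CPM over 22 genes, and none of them reached 1 CPM. Hemocyte genes summed to 2.86, 0.963, 1.46 and 1.21 CPM, photoreceptor genes to 0.525, 0.71, 2.36 and 1.47 and neuronal genes to 17.2, 16.1, 14.8 and 14.5. Fat body genes summed to 795, 712, 15.9 and 469.6 CPM and Malpighian tubule genes to 172, 64, 32.5 and 137 CPM. Both lists were lowest in library 3, where the fat body sum was below that of library 1 by a ratio of 50.0. Without library 3 the ratio of highest to lowest library was 1.69 for fat body, and for tubule it was 2.69 in place of 5.29. The part of attached tubule or fat body tissue in the values of other genes was not tested.

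Variation between the 4 libraries was then described gene by gene. For the 5388 genes that averaged 10 CPM or more, the highest library exceeded the lowest by a median of 0.44 on the log2(CPM + 1) scale. A difference of at least 1 on that scale, about 2-fold, was taken as varied, and 583 genes met it (10.8%), of which 81 differed by 2 to 3 and 58 by 3 or more. The share was 9.54% among genes of 10 to 100 CPM, 15.1% among those of 100 to 1000 CPM and 13.5% above 1000 CPM. The median biological coefficient of variation estimated by edgeR was 0.192 over 8191 genes.

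**Figure D4:**
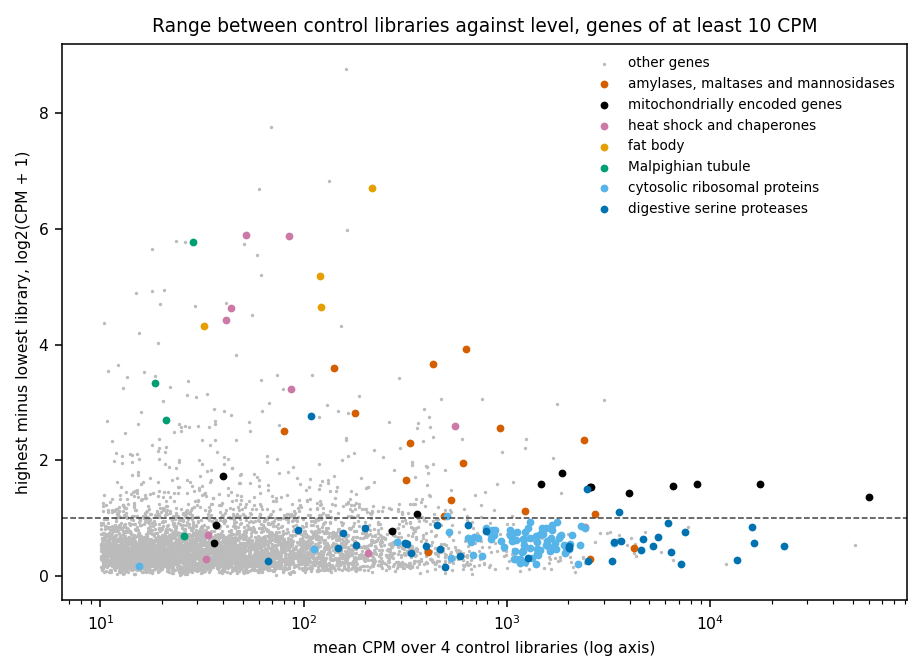
Highest minus lowest control library on the log2(CPM + 1) scale against mean CPM (log axis), for the 5388 genes of at least 10 CPM, with 7 lists in colour. The dashed line marks a difference of 1, which 583 genes reached, and most ribosomal protein and protease genes lie below it while the fat body genes and 14 of 17 amylase, maltase and mannosidase genes lie above.

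Libraries 1 and 2 were the closest pair and differed by at least 1 in 54 genes, with a correlation of 0.986 across the 5388 genes, which are not independent replicates. Libraries 3 and 4 differed in 142 genes, and the 4 pairs across these in 305 to 345. No pair matched as closely as 1 library deposited again would, the closest having a mean chi-square of 28.5 per gene and a median of 1.45. On the first principal component, with 64.8% of the variance, libraries 1 to 4 lay at 19.2, 19.7, -25.2 and -13.7. The second, with 25.8%, set library 3 at 14.8 against library 4 at -19.9. Of the 583 genes, 289 were high in libraries 1 and 2 (above the midpoint of the gene's own range) and low in libraries 3 and 4, 99 the reverse, and 48 were low in library 3 alone. This sorting was made after the data were seen. The labels give no lane, day or dissection batch by which these libraries could be told apart.

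The highest library of a varied gene was library 1, 2, 3 or 4 in 135, 240, 114 and 94 genes by total counts, but in 93, 161, 153 and 120 of 527 genes after TMM scaling. The lowest library was library 3 or 4 in 216 and 215 genes by total counts and in 162 and 146 after TMM scaling. With mitochondrially encoded genes left out of the total, the highest library was library 1, 2, 3 or 4 in 90, 201, 149 and 114 of 554 genes. Library 3 or 4 was then lowest in 176 and 171. The share of mitochondrial reads, which sets part of the total, moved with this split, and its part beyond this change of total was not tested.

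In carbohydrate digestion 14 of 17 members varied (82.4%, against 10.8% of all genes), and among mitochondrially encoded genes 11 of 14. Mal-A7 stood at 106, 206, 1620.3 and 589 CPM, Mal-A8 at 83.7, 119, 1077 and 457 and Mal-A6 at 315, 412, 1854 and 1100.3, and in each library 3 was highest and library 1 lowest. These maltases lie in 1 cluster on chromosome arm 2R, from Mal-A1 (start 8449664) to Mal-A8 (end 8473961). The alpha-glucosidase gene tobi (target of brain insulin) had the same order at 29, 48.1, 362 and 124 CPM. The 2 amylases ran the other way and were highest in library 2, and lowest in library 3. Of the 14, 11 were highest in library 3 and 12 lowest in library 1.

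Lipases and lipid uptake genes varied as well. Of 10 lipases that reached 10 CPM, 7 varied, beside 10.8% of all genes, among them mag, with a ratio of 4.64 between library 3 and library 2, CG8093 at 104, 199, 619 and 525 CPM and CG31091 at 105, 139, 489 and 458. By read share the summed sterol transporters had a ratio of 1.93, and of 1.26 without library 3, while their summed TPM was 1271 ± 97.1 (SD, n = 4). Npc1b differed by a ratio of 6.31 and Npc2e stood at 14.3, 19.1, 121 and 114.6 CPM. The scavenger receptor ninaD, which takes up carotenoids, was at 216, 161, 964 and 335 CPM. A group of genes close together on chromosome arm 2L (13843915 to 13849223) behaved alike: CG8997 stood at 837, 901, 3429 and 1559 CPM, CG7916 at 519, 558, 2697 and 1163 and CG7953 at 452, 459.7, 2004 and 871. Library 3 was highest in each of the genes named here, and for Npc2e library 4 was nearly as high. Npc2c ran the other way, at 38.3, 26.9, 0.3 and 6.26 CPM, and 58.5% of its exons lie under exons of the opposite strand. Of the varied lipases CG6283, CG6277 and CG6271 lie close together on chromosome arm 3R and were highest in library 4 and lowest in library 1, with CG6277 at 99, 205, 232 and 291 CPM.

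All 8 peritrophic and chitin-binding genes of at least 10 CPM varied, beside 10.8% of all genes, with 5 highest in library 2 and 3 highest in library 4. Muc68D differed by a ratio of 8.37, and CG10725 stood at 34.9, 36.8, 5.95 and 3.62 CPM. The unlisted genes CG34220, at 4564, 5089.8, 1762 and 615 CPM, and CG34324, at 2750.0, 3145, 761 and 399.9, had the order of Muc68D. Of 14 peptidoglycan recognition and Imd genes, Rel, pirk, PGRP-SC1a and PGRP-SC1b varied (28.6%, against 10.8% of all genes), the last pair being near-identical copies. PGRP-SC1a stood at 168, 206, 69.4 and 29.8 CPM. Of 11 regeneration and stress signalling genes 5 varied (45.5%), all 5 lowest in library 3, among them the AP-1 subunits kay, at 131, 241, 82.2 and 126 CPM, and Jra, at 96.8, 102, 39.3 and 52.8, and their feedback phosphatase puc, at 109, 135, 59.5 and 72.1. The ETS factor Ets21C, an injury-responsive gene, was at 25.4, 27.5, 3.6 and 4.88 CPM.

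Of 10 heat shock and chaperone genes 6 varied, beside 10.8% of all genes. Small heat shock protein genes Hsp26 and Hsp27 stood at 65.6, 264, 3.51 and 3.71 and 29.8, 174, 2.18 and 1.94 CPM, and Hsp23 at 25.3, 129, 6.3 and 5.05. Hsp68, of the inducible Hsp70 family, was at 59, 108, 3.38 and 5.82 CPM, its co-chaperone DnaJ-1 at 136, 169, 17.2 and 25.7 and the abundant Hsp83 at 747, 1070.2, 177 and 234. All 6 were highest in library 2, second in library 1 and low in libraries 3 and 4. The constitutive Hsc70-4 differed less, at 2939, 3152, 1758 and 1825 CPM, and Hsf, the factor that induces the others, stood at 36.5, 33.9, 29.6 and 31.6. All 4 libraries carry the same label of a shift to 29 °C. All 5 lysozyme genes of at least 10 CPM varied, against the same 10.8%, and 4 were highest in library 2: LysD stood at 72.4, 383, 52 and 84.7 CPM, LysB at 53.9, 199.7, 20.4 and 40.7 and LysE at 41.6, 102, 19.3 and 23.1, while LysX was highest in library 4, at 6.68, 9.89, 5.87 and 65.2 CPM. LysB, LysD and LysE are near copies in 1 cluster on chromosome arm 3L, so their split is uncertain. For the summed lysozymes the ratio of the highest to the lowest library was 6.38, and 2.01 without library 2. The eye-colour gene w, also carried as a marker by many transgenes, stood at 114, 378, 71.3 and 78.6 CPM, again highest in library 2.

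All 4 fat body genes and 3 of 4 tubule genes of at least 10 CPM were lowest in library 3. The yolk proteins are made by the female fat body and follicle cells, and Yp1 (X, 10053811 to 10055498) stood at 364, 316, 2.48 and 183 CPM, Yp2 at 184, 158, 4.11 and 136 and Yp3 at 194, 171, 6.72 and 114. The lipophorin precursor apolpp, another fat body product, was at 40.6, 55.5, 1.84 and 31.5 CPM. Exons of the opposite strand cover 54.3% of Yp1, and the strand setting of the counting is not given in the sources used here. Among tubule genes the urate oxidase gene Uro stood at 58.2, 15.8, 0.0857 and 39.6 CPM, the potassium channel Irk3 at 34.2, 9.38, 2.48 and 27.7 and the organic anion transporter Oatp58Dc at 39.7, 14, 5.27 and 24.8. Library 3 was lowest and library 1 highest for these 3, and library 2 lay below library 4. The other tubule gene, Oatp58Da, did not vary and was lowest in library 2 and highest in library 4, at 27.2, 20.5, 22 and 33.7 CPM. CG3168, at 297, 73.4, 1.63 and 158 CPM, kumpel, at 97.5, 19.2, 0.857 and 85.5, and CG17752, at 55.6, 8.27, 0.0428 and 40.2, had that order too, as had the mucin-type genes Mur18B, at 353, 71.8, 4.58 and 221, and Muc11A, at 111, 46.3, 0.0857 and 84.8. From high to low the libraries ran 1, 4, 2, 3 in Uro, Irk3 and Oatp58Dc and 1, 2, 4, 3 in Yp1, Yp2 and Yp3.

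The summed stem cell and enteroblast genes, and the summed muscle genes, were highest in library 4. The stem cell and enteroblast list summed to 80.4, 82.5, 72 and 142 CPM, and without library 4 the ratio of its highest to its lowest library was 1.15 in place of 1.97. In it esg stood at 20, 18.9, 13.9 and 31.3, zfh2 at 12.6, 11.7, 16.7 and 25.3 and Sox21a, which drives enteroblast differentiation, at 4.49, 5.98, 4.24 and 19 CPM. RnrS, named above, was also highest in library 4. In the muscle list Act57B stood at 329, 248, 433 and 573 CPM and Act87E at 58.9, 36, 80.2 and 127, with library 4 highest and library 2 lowest in both. Other genes high in library 4 and chosen after their values were seen were lectin-37Da, at 122, 184, 101 and 646 CPM, and CG14499, at 22.7, 89.2, 25.9 and 469.8.

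**Figure D5:**
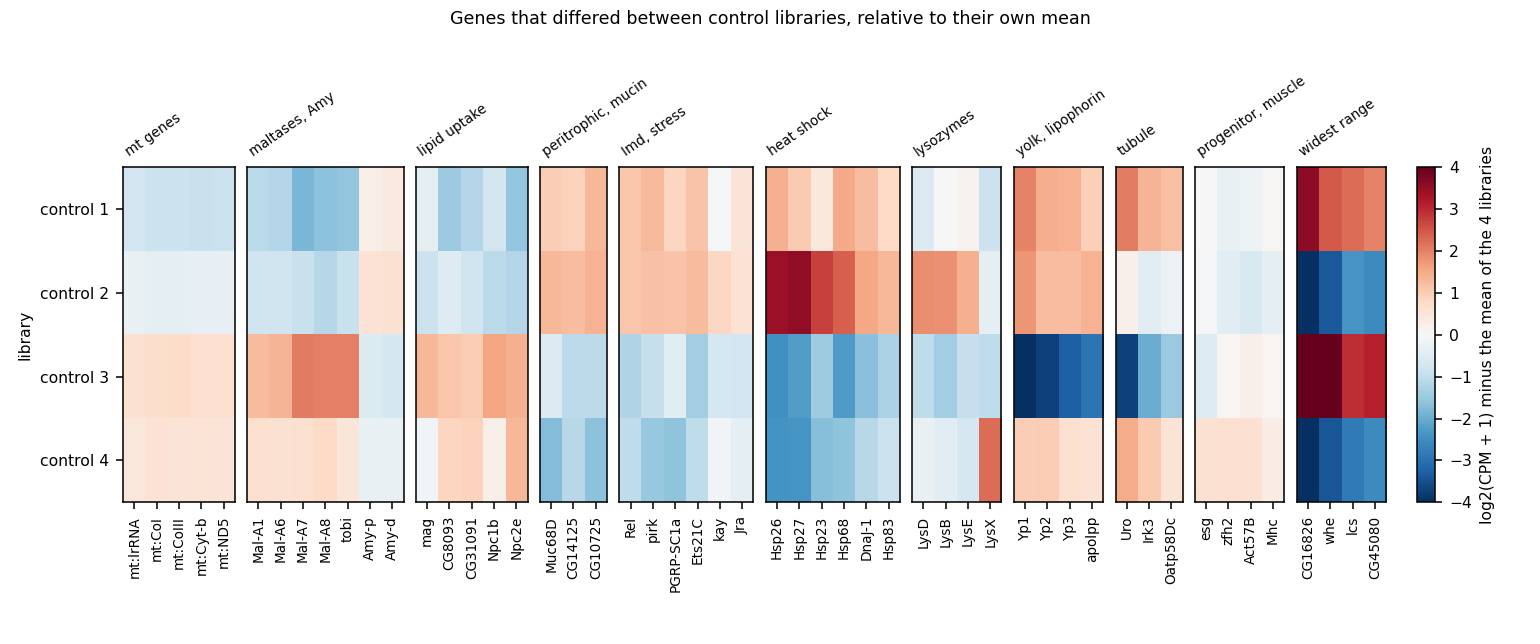
Genes of the lists that varied most (columns) in each control library (rows), coloured by log2(CPM + 1) minus the gene's mean over the 4 libraries. Differences beyond the ends of the scale take its end colours, and heat shock genes are red in control 2 and blue in controls 3 and 4, yolk genes are blue in control 3, and maltase genes are red in control 3.

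Both widest ranges belonged to genes present in 2 libraries and near 0 in the other pair. CG16826 (2L, 13347773 to 13349020) stood at 210.1, 0.0507, 432 and 0 CPM, a range of 8.76 on the log2(CPM + 1) scale, and whe at 58.6, 0.0507, 216 and 0 CPM. The gene lcs stood at 34.9, 0.507, 58.8 and 0.0863 CPM and CG45080 at 22.2, 0, 49.3 and 0. All 4 were high in library 3, intermediate in library 1 and close to 0 in libraries 2 and 4. Libraries 1 and 3 were the pair above the midpoint of the range in 5 of the 583 varied genes. On the X chromosome lcs (start 21396727) and whe (start 21402339) are near each other, and CG45080 lies on 3R.

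Among genes of at least 100 CPM the narrowest ranges by total counts included that of Bsg, a cell-surface glycoprotein, at 666, 660.0, 672 and 676 CPM (range 0.03). Others were those of the light chain Mlc-c, at 378, 375, 365 and 380.2, and of the respiratory subunits COX8, at 218, 209, 216 and 219, and Cyt-c1, at 407, 396, 419 and 399.8. These ranges depend on the scaling, since the TMM factors of libraries 1 to 4 were 1.06, 1.05, 0.945 and 0.952. The proteasome subunit Rpt6 stood at 141, 134, 136 and 136 CPM, and none of the 31 proteasome genes of at least 10 CPM varied. Nor did any of 69 mitochondrial ribosomal protein genes, 68 nuclear respiratory chain genes, 17 endoplasmic reticulum chaperone and secretion genes or 14 antioxidant genes of that level, beside 10.8% of all genes. The lists of 17 and 14 genes are too small to set apart from that share. The lamin genes were low to moderate in these controls, Lam at 18.5, 20.1, 14.1 and 16.5 CPM and LamC at 76, 90.4, 48.2 and 57.5.

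Further lists are given by counts, to be read beside the 10.8% of all genes that varied. Nutrient transporters varied in 5 of 10 genes, Niemann-Pick genes in 4 of 8 and the cytochrome P450 list in 9 of 46. Glutathione S-transferases varied in 4 of 21, UDP-glycosyltransferases in 5 of 20 and enterocyte genes in 2 of 10. Muscle genes varied in 3 of 17, translation factors in 1 of 43, septate junction genes in 1 of 12 and midgut factors in 1 of 11. Of 9 enteroendocrine genes NPF and Nplp2 varied, Nplp2 at 18.2, 16.3, 0.642 and 8.41 CPM. Of 21 glycolysis and citric acid cycle genes 1 varied, of 22 lysosome and autophagy genes 3 (13.6%), of 10 lipid synthesis genes 3, and of 6 ecdysone response genes 2, Eip75B at 96.2, 101, 40.6 and 45.4 CPM and MsrA at 138, 119, 179 and 288. None of 6 insulin and nutrient signalling genes varied, too few to set apart from that share. Odorant-binding protein genes were mostly near or below detection at this depth, with 3 of 51 at 1 CPM or more, and 1 of 60 gustatory receptor genes reached that level. Of 2264 long noncoding and antisense RNA genes 117 reached 1 CPM, and lncRNA:CR32368 varied most among them, at 3.15, 27.9, 11.1 and 194 CPM. Of 38 digestive serine proteases 3 varied (7.89%): Jon74E, at 3217, 3119, 1137 and 2408 CPM, Jon25Bii, at 2728, 2352, 4042 and 5066, and CG18179, at 119, 204, 29 and 81.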

How the data were processed

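RNA of whole guts was measured by poly(A) RNA sequencing, and the 4 control libraries of 8 were used. Per the labels' protocols, 100 ng of total RNA entered a directional kit, and 12 libraries were pooled and read on 2 lanes as 50-nt single reads. The submitters' processing notes name BDGP6, TopHat2 2.0.13, HTSeq 0.6.0 and DESeq2 1.10.1. How strand was set in counting, and which annotation release was used, is not given in the sources used here. The deposited table holds raw counts per gene, made by the authors. The authors' deposited table of log2 fold changes was read only to pair identifiers with symbols.

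CPM was each count divided by its library total (19720070 to 23347139) times 1000000, and TPM used exon lengths of Ensembl 115 (BDGP6.54), found for 17381 of 17559 identifiers. Names came from that annotation for 17252 genes, from the authors' table for 129 and 34, and 144 had none. Ranges were taken on log2(CPM + 1), and no test between groups was made. The coefficient of variation came from edgeR 4.0.16 in R 4.3.3; DESeq2 1.42.0 gave alternative size factors; other steps used Python 3.11.15, pandas 2.3.3 and numpy 2.4.6. The steps were tested on simulated data.

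The 52 gene lists (3524 genes, 10 entries unmatched) were chosen with earlier results of these data known. The rule for named genes took the 30 highest by CPM, 10 highest by TPM, first 3 of each list, cell type markers, 20 widest and 10 narrowest ranges, 195 genes in all. Other list members, unlisted genes and sortings of libraries were chosen after their values were seen. Alternatives were TMM and DESeq2 scaling, mitochondrial genes left out of the total, another pseudocount, other minimum levels and leaving out each library. Promoter and protein sequences were not analysed here.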

Additional observations from a re-analysis of the deposited data

Results flagged for a closer look

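Of 254 genes and list sums examined, 13 (5.12%) had a library whose gap to the nearest other was large beside the whole range of the 4, where chance gives about 1 in 20. The far library was library 1 for 1 of them and libraries 2, 3 and 4 for 4 each.

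Library 1 was high for the peptidase gene CG8773, at 2228 CPM against 2124 to 2141 in the others. Library 2 was high for LysD, at 383 CPM against 52.04 to 84.7, and for Hsp27, at 174 against 1.94 to 29.8. It was low for the gustatory receptor gene Gr39b, at 0.101 CPM against 0.257 to 0.286, and for summed membrane aminopeptidases, at 16128 against 17164 to 17315. Library 3 was high for Cat, at 610.3 CPM against 413 to 445, and for the arrestin gene Arr1, at 1.67 against 0.0477 to 0.0863. It held the counts of ninaC, at 0.0428 CPM against 0, and was low for summed ovary genes, at 0.814 against 1.25 to 1.34. Library 4 was high for lncRNA:CR32368, at 194 CPM against 3.15 to 27.9, and for RnrS, at 20.5 against 8.87 to 10.2. It was high for summed stem cell and enteroblast genes, at 142 CPM against 72.04 to 82.5, and held the counts of CG33128, at 0.0863 against 0. The values of Gr39b, ninaC and CG33128 lie at or under the level that a count of 0 allows or close to it. All flags were made by total counts. After TMM scaling summed membrane aminopeptidases were 16360, 15348, 18264 and 18035 CPM, so library 2 was lowest but no longer far from library 1. Summed ovary genes were then 1.26, 1.21, 0.861 and 1.31 CPM, and summed stem cell and enteroblast genes 76, 78.5, 76.3 and 149.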

How the results depend on the processing

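Of the alternatives, 0 of 8 were counted as moving the membership of the most abundant genes, a check that does not measure their levels. The genes detected moved in 0 of 8 and the number of varied genes in 1 of 10. List sums moved in 17 of 363, shares of the most abundant genes in 3 of 15 and the level of a named gene in 43 of 1360. These were counted as moved when the mean shifted by at least its SD over the 4 libraries. Leaving out 1 of 4 libraries cannot shift the mean of a list sum or gene that far, so those checks could not come out as moved. All 17 moved list sums came with mitochondrial genes left out of the total. Varied genes numbered 278 with a mean of at least 50 CPM, 736 from 5 CPM, 625 with a pseudocount of 0.1, 527 with TMM (465 shared with the 583), 535 with DESeq2 size factors (455 shared) and 554 without mitochondrial genes in the total (491 shared). The stricter minimum tests fewer genes. Leaving out 1 library gave 408 to 513 varied genes and 8066 to 8110 genes of at least 1 CPM. The median gene shifted by -0.08, -0.07, 0.08 and 0.07 (log2) with TMM and by 0.08, 0.12, 0.23 and 0.21 without mitochondrial genes in the total.

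That last choice raises every nuclear level by construction. With it the 10, 30 and 100 most abundant genes held 15.6%, 26.0% and 42.1%, from 22.6%, 32.9% and 48.0%. Summed CPM then averaged 163608 for serine proteases, 19023 for membrane aminopeptidases, 13649 for aspartic peptidases, 11158 for lipases, 8316 for metal handling, 14448 for the vacuolar ATPase, 3790.5 for antioxidant enzymes, 8919.7 for chaperones of the endoplasmic reticulum, 2747 for the proteasome, 3250.3 for lysosome and autophagy, 1738 for mitochondrial ribosomal proteins, 23929.6 for the nuclear respiratory chain, 2882 for lipid synthesis, 34748 for enterocyte genes, 1361 for clock genes, 22.3 for trachea and 17.5 for neurons. No paired analysis was possible because 1 group was described and no test was made.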
